A study of Mus musculus with 4 samples.

Results

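Genes of fatty acid oxidation, ketone body metabolism and their regulator PPAR-alpha were read in mouse primary hepatocytes with and without Prom1. The 34 members were taken by symbol from the deposited gene table of 22079 identifiers, and all 34 had a row. They comprise the receptor gene Ppara, genes of fatty acid uptake and activation, the carnitine shuttle, mitochondrial and peroxisomal beta-oxidation, electron transfer, acyl-CoA thioesterases and ketone body metabolism, and 3 further targets of PPAR-alpha. RNA came from 4 libraries, 2 of wild-type (WT) C57BL/6 males and 2 of Prom1-/- (KO) C57BL/6 males, all 8 weeks old. How the Prom1 deletion was made, and whether cells of several animals were pooled, is not stated in the sources used here. The hepatocytes of all groups attached for 4 hours in a medium with dexamethasone at 10 nM, HEPES at 23 mM and serum (FBS) at 10%, and were then left overnight without serum. The series describes the libraries of a genotype as biological replicates. Values are FPKM, that is, fragment numbers corrected for the length of the transcript and for the depth of the library, so that levels can be compared between genes.

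PPAR-alpha is a nuclear receptor that is activated by fatty acids and, as a dimer with a retinoid X receptor, switches on genes of fatty acid use in the fasting liver. Long-chain fatty acids are bound to CoA, carried into mitochondria as carnitine esters, and shortened by repeated rounds of dehydrogenation, hydration, dehydrogenation and thiolysis. Peroxisomes carry out the same chemistry on very-long-chain and other fatty acids, and the liver turns surplus acetyl-CoA into ketone bodies. The Cyp4a genes encode omega-hydroxylases and are among the most inducible PPAR-alpha targets in mouse liver.

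The response element of PPAR-alpha is a pair of hexamers in the same orientation with a 1-base gap, and this type of element also binds HNF4A. Promoter windows from RefSeq (GRCm38.p6, 250 bases before to 50 after a start site) were given for 27 of the 34 members, with 30 windows in all. They were searched on both strands for AGGNCANAGGNCA, where N is any base. The letters were found in 1 of the 30 windows (3.33%), that of Fabp1, and in 125 of all 32851 windows (0.381%). The Fabp1 stretch is shown because it holds the single match, in the promoter of the member with the highest mean level (80.6 FPKM). It is chr6:71199737-71199826 on the plus strand, read 5′ to 3′, with the match in capitals on the minus strand.
Fabp1: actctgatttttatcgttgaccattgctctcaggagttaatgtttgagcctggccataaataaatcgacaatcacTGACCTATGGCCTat
The match ends 55 bases before the start site in RefSeq and 3 bases before that in GENCODE M21. A match describes letters and not a bound site. Hadha and Hadhb, which encode the alpha and beta subunits of the same enzyme, are divergent neighbours whose ends in GENCODE M21 lie 85 bases apart. In RefSeq the starts lie further apart, at 30154980 for Hadha and 30155253 for Hadhb. The bases between the GENCODE ends are chr5:30155163-30155247 on the plus strand. They are shown because this stretch separates the GENCODE starts of both genes, whose values are compared further on.
Hadha and Hadhb: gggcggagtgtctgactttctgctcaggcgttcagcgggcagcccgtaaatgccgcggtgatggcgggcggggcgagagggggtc
It held no match to the letters searched.

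The targeted gene, Prom1, had 0.571 and 1.22 FPKM in the WT libraries, 0.0458 FPKM in KO 2 and a listed value of 0 in KO 1, so its level was lower under the KO label in both libraries. The number of genes at 1 FPKM or more was 10327 to 10424 per library. The number of fragments behind a value is unknown, because the deposited values are read as FPKM. The hepatocyte marker Alb was listed at 0 in WT 2 and at 25551 to 32670 FPKM elsewhere, and an FPKM of 0 can be a failed estimate. Of 8 hepatocyte markers 7 were found, and without Alb they summed to 8095 and 9675 FPKM in WT against 8301 and 8969 in KO. KO 1 held the most and KO 2 the least of the 9 sinusoidal endothelial markers (81.8 and 42.8 FPKM summed, against 58.0 and 55.8 in WT) and of the 10 stellate cell and fibroblast markers (26.0 and 11.7 FPKM, against 15.2 and 17.1). The 11 macrophage markers summed to 384 and 379 FPKM in WT and to 435 and 503 FPKM in KO. Of the 10 tested, 5 had both KO libraries above both WT libraries and 1 had both below. Over all genes tested these shares were 18.3% and 19.8%. All 6 cholangiocyte markers were in the table, 3 of them under 1 FPKM in every library. They summed to 53.5 and 50.6 FPKM in WT against 61.8 and 74.6 in KO. The median of the 3 tested markers, each taken relative to its own mean, did not follow this sum. That median was lowest for KO 2 (-0.27), the library with the highest sum, and highest for KO 1 (0.19). Both KO libraries exceeded both WT libraries for 1 marker. All 7 lymphocyte and 4 adipocyte markers stayed under 1 FPKM in every library, with Cd3g, Cd79a, Nkg7 and Lep listed at 0 throughout. In bulk RNA, fewer cells of a type and less RNA per cell cannot be told apart.

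No member passed the test between genotypes. Of the 34 members, 32 reached a mean of 1 FPKM and were tested; Acot1 and Acot3 did not. By limma on log2(FPKM + 1) with Benjamini-Hochberg adjustment, 0 of the 32 had an adjusted p under 0.05, and 0 of all 10407 genes did (0%). The lowest adjusted p of a member was 0.519 (limma), and the smallest two-sided p that exact permutation of these 4 libraries allows is 0.333. At an unadjusted limma p under 0.05 there were 8 members, all lower in KO, where 4.19% of all genes were lower and 3.1% higher at that level. They are 25.0% of the members tested and 0 members were higher at that level. The 8 were Ppara, Ehhadh, Acadvl, Acot4, Hsd17b4, Etfb, Decr1 and Cpt2.

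The direction of most members was downward in KO, by small amounts. Of the 32 tested members 22 had a lower mean in KO (68.8%, against 50.3% of all genes), and the median log2 difference was -0.15, against -0.0011 over all genes. The KO values were both below the WT values for 17 members (53.1%, against 19.8% of all genes) and above them for 3 (9.38%, against 18.3%). The members with KO above were Acsl1, Eci1 and Acot2. Differences under 0.2 on the log2 scale in either direction were found for 15 members. KO 1 was the lowest library for 17 of the 32 members, KO 2 for 7, WT 2 for 6 and WT 1 for 2. These counts were not made over all genes, so whether they are particular to the members is unknown. KO 1 had the lowest library total (498348 FPKM). With values rescaled to a common total or by the median ratio, the median log2 difference of the members was again -0.15. The counts by library were not repeated on rescaled values. KO 1 was also the library with the most endothelial and stellate cell marker RNA, and summed macrophage marker RNA was higher in both KO libraries. The part of these cells in the members' values was not tested. Acadvl, Hadha, Acaa1a, Acaa1b and Etfdh overlap another gene of the table on the opposite strand, and since the strand option of counting is not stated, they are uncertain to that extent. Without KO 1 the median log2 difference of the members was -0.09, and without KO 2 it was -0.22.

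**Figure D1:**
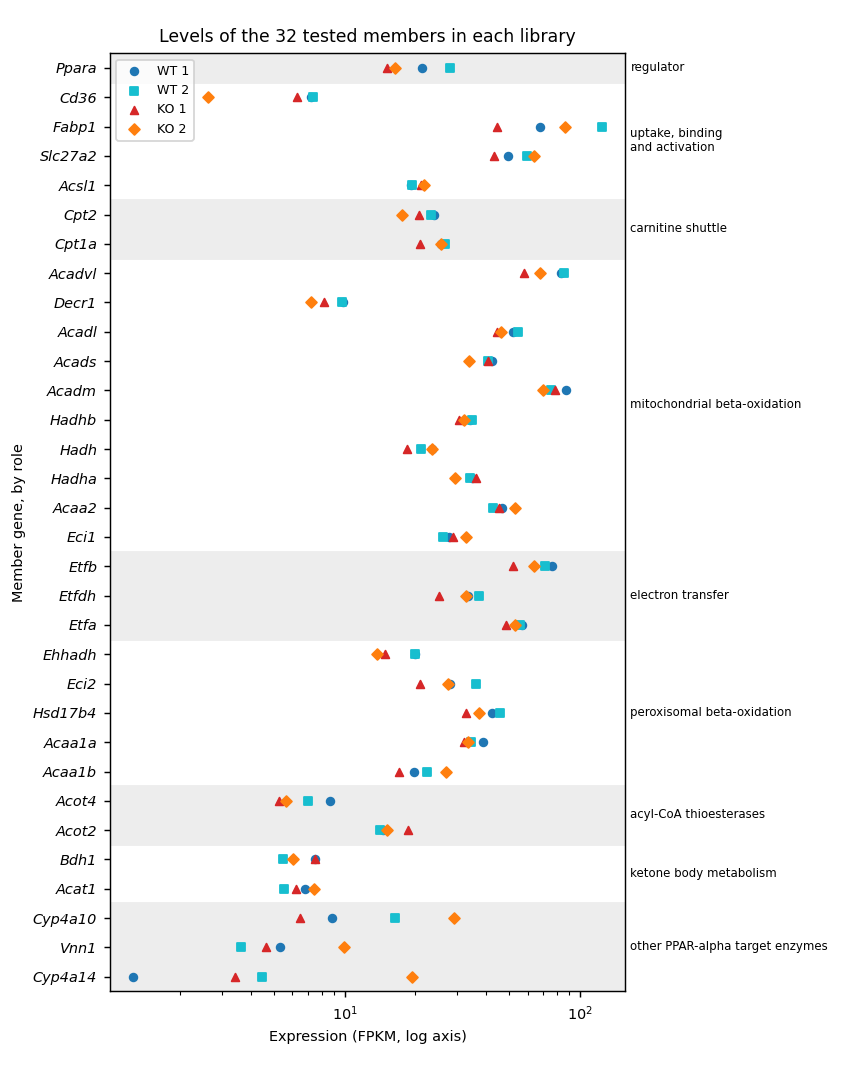
Expression of the 32 tested members in FPKM on a log axis, 1 row per gene and 1 symbol per library, ordered by role. Most genes of beta-oxidation keep within a narrow range over the 4 libraries, while Cd36, Fabp1, Cyp4a10, Vnn1 and Cyp4a14 spread widely.

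Ppara, the receptor gene (ENSMUSG00000022383, chromosome 15, 85734983 to 85802819 on the plus strand in mm10), had the lowest log2 difference of the members whose 95% interval lay below 0. Its FPKM was 21.4 in WT 1 and 28.0 in WT 2, against 15.2 in KO 1 and 16.4 in KO 2. The KO values lay close together and under the WT values. The log2 difference was -0.60 (SE 0.15, 95% interval -0.97 to -0.24), a KO level of 0.658 times WT on the log2(FPKM + 1) scale (limma adjusted p = 0.541). The interval therefore did not reach 0, although the adjustment over all genes left no call. Without WT 2, its highest library, the difference was -0.42, and it ran to -0.79 without WT 1.

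The genes that work with the receptor were listed separately. Of 24 nuclear receptor, coactivator and corepressor genes 21 were tested, of which 14 were lower and 7 higher in KO; their median log2 difference was -0.07. Over all genes, 50.3% had a lower mean in KO. None of the 21 passed the limma test over all genes. At an unadjusted limma p under 0.05, 4 were lower and 0 higher, against 4.19% and 3.1% of all genes. Those 4 were also the ones with the largest separated differences. Rxra, which encodes the retinoid X receptor that pairs with PPAR-alpha, stood at 32.8 and 42.1 FPKM in WT against 25.3 and 29.8 in KO (log2 difference -0.42). Hnf4a, a nuclear receptor that maintains hepatocyte identity, stood at 90.4 and 95.8 FPKM in WT against 64.9 and 59.5 in KO (-0.58, limma adjusted p = 0.470). Hnf4a was the 1 hepatocyte marker of 7 whose KO libraries were both below WT. Lpin2, a lipin phosphatidate phosphatase, differed by -0.58 and Creb3l3, a liver transcription factor of fasting, by -0.48. Without WT 2 the value was -0.30 for Creb3l3 and -0.25 for Rxra.

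Of the 4 genes of uptake, binding and activation, 3 had a lower and 1 a higher mean in KO, where 50.3% of all genes were lower. Cd36 and Acsl1 were separated in opposite directions. Cd36 encodes a fatty acid translocase that macrophages and endothelial cells also carry, Fabp1 the fatty acid binding protein of the hepatocyte cytosol, Slc27a2 a transporter with very-long-chain acyl-CoA synthetase activity, and Acsl1 the main long-chain acyl-CoA synthetase of liver. Fabp1 had an FPKM of 67.4 in WT 1 and 124 in WT 2, against 44.5 in KO 1 and 86.4 in KO 2. The spread within each genotype was nearly as large as the level of its lower library, with WT 2 at 1.84 times WT 1 and KO 2 at 1.94 times KO 1. The genotypes overlapped, and the log2 difference was -0.55 (SE 0.38), moving to -0.08 without KO 1 and -1.02 without KO 2. The median of the hepatocyte markers relative to each gene's mean had the same order, with 0.17 in WT 2, 0.11 in KO 2, -0.08 in WT 1 and -0.23 in KO 1. This median includes Alb, which was listed at 0 in WT 2. Summed without Alb, the markers gave 9675 FPKM in WT 2, 8969 in KO 2, 8301 in KO 1 and 8095 in WT 1. By that sum WT 1 and not KO 1 was the lowest library. The part of the hepatocyte markers in the Fabp1 values was not tested.

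Slc27a2 overlapped as well, at 49.7 and 59.8 FPKM in WT against 43.2 and 63.9 in KO (log2 difference -0.05, 95% interval -0.54 to 0.44). KO 1 was again the lowest library and KO 2 was the highest. Cd36 stood at 7.22 and 7.32 FPKM in WT, 6.26 in KO 1 and 2.63 in KO 2. The low value was that of KO 2, and the log2 difference was -0.69 (SE 0.32) with all libraries and -0.19 without KO 2. KO 2 was also lowest in endothelial markers (42.8 FPKM summed) but highest in macrophage markers (503 FPKM summed). The part of either cell type was not tested. Acsl1 went the other way by a small amount, at 19.3 and 19.4 FPKM in WT against 21.0 and 21.9 in KO. Its libraries were tight and separate, with a log2 difference of 0.14 (95% interval -0.10 to 0.38).

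Both tested genes of the carnitine shuttle were lower in KO, where 50.3% of all genes had a lower mean. Cpt1a, the outer membrane transferase that controls entry of long-chain fatty acids, stood at 25.7 and 26.8 FPKM in WT against 21.0 and 25.6 in KO. KO 2 reached almost the level of WT 1, and the log2 difference was -0.17 (95% interval -0.48 to 0.14). Without KO 1 it was -0.03. Cpt2, the inner membrane transferase, stood at 24.0 and 23.2 FPKM in WT against 20.7 and 17.6 in KO, a log2 difference of -0.29 (95% interval -0.58 to -0.0066; limma adjusted p = 0.682). Here KO 2 and not KO 1 was the lower library, and without KO 2 the difference was -0.18.

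In mitochondrial beta-oxidation, 8 of 10 members had a lower mean in KO and 5 had both KO libraries below WT. Over all genes tested these shares were 50.3% and 19.8%. The group median was -0.13. The acyl-CoA dehydrogenases open each round, each for its own chain length. Acadvl, which acts on very long chains, stood at 82.8 and 85.6 FPKM in WT against 57.7 and 67.9 in KO. Its WT libraries nearly coincided and the KO libraries were clearly separate from them, at a log2 difference of -0.42 (SE 0.11, 95% interval -0.70 to -0.14; limma adjusted p = 0.562). Leaving out a library gave -0.31 to -0.54. Acadvl (chromosome 11, 70010183 to 70015411, minus strand) overlaps Dvl2 on the opposite strand, which stood far lower, between 4.59 and 5.73 FPKM over the 4 libraries. Acadl, for long chains, stood at 52.0 and 54.4 FPKM in WT against 44.7 and 46.4 in KO (-0.22, 95% interval -0.45 to 0.01). Acads, for short chains, was separated only narrowly, at 42.4 and 40.8 FPKM in WT against 40.5 and 33.8 in KO. Acadm, for medium chains, overlapped at 87.3 and 75.4 FPKM in WT against 78.5 and 69.9 in KO (-0.13, 95% interval -0.42 to 0.16).

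Hadha and Hadhb, the divergent neighbours shown above, encode the trifunctional protein that handles long chains. Hadhb stood at 34.0 and 34.8 FPKM in WT against 30.6 and 32.3 in KO, and Hadha at 34.9 and 34.1 FPKM in WT against 36.2 and 29.4 in KO. The levels of the pair were alike in both WT libraries, while Hadha was the higher of the pair in KO 1 and Hadhb in KO 2. The log2 difference was -0.13 for Hadhb (95% interval -0.36 to 0.11) and -0.08 for Hadha (-0.39 to 0.23). Hadh, the short-chain hydroxyacyl-CoA dehydrogenase, overlapped at -0.09, and Acaa2, the mitochondrial thiolase, at 0.13.

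The auxiliary enzymes for unsaturated chains went apart. Decr1, the dienoyl-CoA reductase, stood at 9.84 and 9.80 FPKM in WT against 8.21 and 7.22 in KO. WT libraries agreed closely and both KO libraries were lower, at -0.31 (95% interval -0.61 to -0.02; limma adjusted p = 0.674). Eci1, the mitochondrial enoyl-CoA isomerase, was higher in both KO libraries, at 27.7 and 26.1 FPKM in WT against 28.9 and 32.8 in KO (0.19, 95% interval -0.08 to 0.45). Without KO 2 its difference was 0.096.

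**Figure D2:**
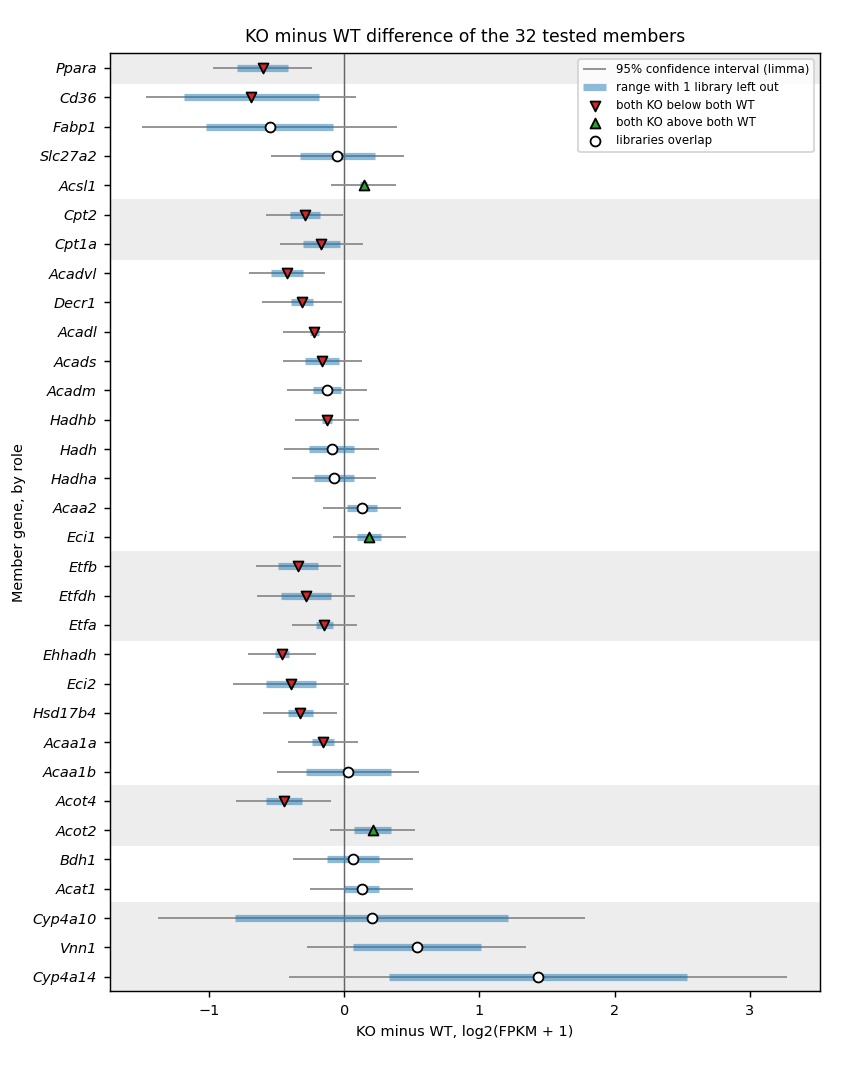
KO minus WT difference in log2(FPKM + 1) for the 32 tested members, with thin lines for the 95% confidence interval of limma and thick bars for the range over fits with 1 library left out. Triangles mark members whose libraries do not overlap, 17 pointing down and 3 pointing up, and Cyp4a14 and Cyp4a10 have the widest intervals.

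The 3 genes that pass electrons from the dehydrogenases to the respiratory chain were all separated, with KO lower. Of all genes tested, 19.8% were separated in that direction. Etfb, a subunit of the electron transfer flavoprotein, stood at 76.0 and 70.9 FPKM in WT against 52.1 and 64.1 in KO (log2 difference -0.34, 95% interval -0.65 to -0.03; limma adjusted p = 0.664). Etfdh, its ubiquinone oxidoreductase, stood at 33.5 and 37.2 FPKM in WT against 25.2 and 32.9 in KO (-0.28, 95% interval -0.65 to 0.08). Etfa, the other subunit, stood at 57.0 and 55.9 FPKM in WT against 48.7 and 53.1 in KO (-0.15, 95% interval -0.39 to 0.09). In each of the 3 genes KO 1 was the lowest library. Without KO 1 the values were -0.19 for Etfb, -0.10 for Etfdh and -0.09 for Etfa. Of the 50-base words of Etfb, 43.8% also occur in the overlapping gene model Gm45233, which stood at 0.517 FPKM in WT 2 and below 0.001 FPKM elsewhere, so Etfb is uncertain to that extent.

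In peroxisomal beta-oxidation 4 of 5 members had both KO libraries below WT, against 19.8% of all genes tested. The group median was -0.33. Ehhadh (chromosome 16, 21761287 to 21787807, minus strand) encodes the bifunctional enzyme, a classic PPAR-alpha target. Its FPKM was 20.0 in WT 1 and 19.9 in WT 2, against 14.8 in KO 1 and 13.7 in KO 2. Spread within both genotypes was small against the gap between them, and the log2 difference was -0.46 (SE 0.10, 95% interval -0.71 to -0.21; limma adjusted p = 0.519). Its range with a library left out was narrow, -0.41 to -0.51. Hsd17b4, the D-bifunctional protein, stood at 42.3 and 45.9 FPKM in WT against 32.7 and 37.4 in KO (-0.33, 95% interval -0.60 to -0.05; limma adjusted p = 0.614). Eci2, an enoyl-CoA isomerase of peroxisomes, stood at 28.1 and 36.1 FPKM in WT against 21.0 and 27.5 in KO. KO 2 almost met WT 1, and the difference of -0.39 became -0.21 without KO 1 and -0.22 without WT 2.

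The 2 peroxisomal thiolase genes of chromosome 9 gave different values. Acaa1a stood at 38.8 and 34.6 FPKM in WT against 32.0 and 33.6 in KO (-0.16, 95% interval -0.41 to 0.10). Acaa1b overlapped at 19.7 and 22.4 FPKM in WT against 17.1 and 27.0 in KO (0.03, 95% interval -0.49 to 0.55). KO 2 was the highest library for Acaa1b and KO 1 the lowest for both. The genes are close copies, with 30.5% of the 50-base words of Acaa1b also in Acaa1a, and how fragments were shared between them is not given in the sources used here. Both also overlap other genes on the opposite strand.

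The acyl-CoA thioesterases, which release free fatty acids from CoA, lie within 72542 bases of chromosome 12. Acot2, the mitochondrial enzyme, stood at 14.5 and 14.2 FPKM in WT against 18.5 and 15.1 in KO (0.21, 95% interval -0.11 to 0.53). Acot4, a peroxisomal enzyme, stood at 8.63 and 7.02 FPKM in WT against 5.28 and 5.63 in KO (-0.45, 95% interval -0.80 to -0.10; limma adjusted p = 0.586). Neighbours of the same cluster had separated libraries in opposite directions, KO above WT for Acot2 and below for Acot4. The value of Acot2 was 0.07 without KO 1 and 0.35 without KO 2. The cytosolic enzyme gene Acot1 was at 0.620 and 1.37 FPKM in WT against 0.954 and 0.641 in KO, and Acot3 was at or below 0.0591 FPKM and listed at 0 in KO 1. These 2 were under the expression limit and were not compared. Shared words make up 27.6% of Acot2, mostly with Acot1 (24.5%), and 4.47% of Acot4.

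The 2 ketone body members overlapped between genotypes. Acat1, the mitochondrial acetoacetyl-CoA thiolase, stood at 6.81 and 5.51 FPKM in WT against 6.20 and 7.44 in KO (0.13, 95% interval -0.26 to 0.51). Bdh1, the hydroxybutyrate dehydrogenase, stood at 7.47 and 5.47 FPKM in WT against 7.47 and 6.07 in KO (0.06, 95% interval -0.38 to 0.51). For both the lowest library was WT 2. Of the other genes of ketone body metabolism 11 were tested, 9 lower and 2 higher in KO, with a median of -0.12 and 0 passing the limma test. At an unadjusted limma p under 0.05, 2 were lower and 0 higher, against 4.19% and 3.1% of all genes. Both KO libraries were below WT for 3 and above WT for 1, against 19.8% and 18.3% of all genes. In that list the lactate and ketone carriers were separated in opposite directions, with Slc16a7 at 12.3 and 16.6 FPKM in WT against 10.8 and 11.2 in KO (-0.35, and -0.15 without WT 2) and Slc16a1 at 29.0 and 31.7 FPKM in WT against 33.8 and 32.0 in KO (0.11).

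**Figure D3:**
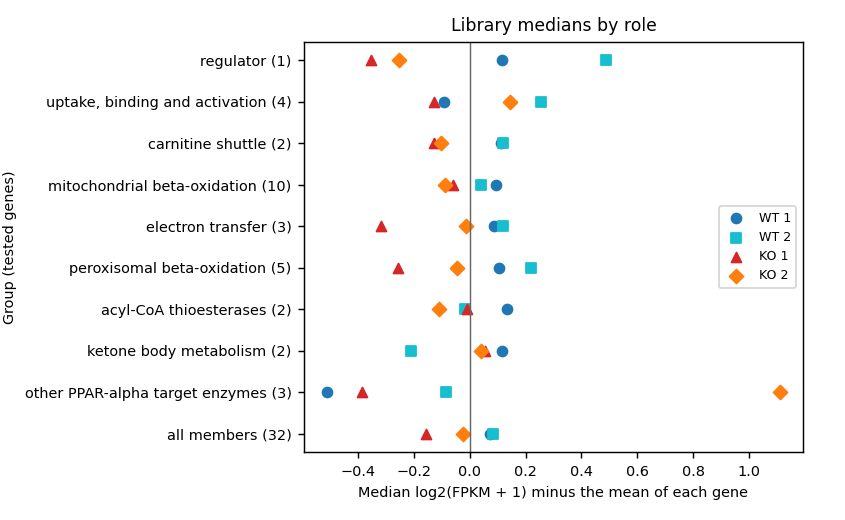
Median of log2(FPKM + 1) minus each gene's mean over the 4 libraries, for each role and for all tested members, with the number of tested genes in brackets. Both KO medians lie below both WT medians for the regulator, carnitine, mitochondrial, electron transfer, peroxisomal and all-member rows, while KO 2 stands at 1.11 for the further PPAR-alpha targets.

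In the 3 further PPAR-alpha targets KO 2 stood above every other library. Over the 32 tested members the highest library was KO 2 for 10, WT 2 for 10, WT 1 for 9 and KO 1 for 3. Cyp4a14 had an FPKM of 1.27 in WT 1 and 4.44 in WT 2, against 3.42 in KO 1 and 19.4 in KO 2. KO 1 lay between the WT libraries, so the genotypes overlapped. KO 2 was at 5.67 times KO 1, and WT 2 at 3.51 times WT 1. The log2 difference of 1.44 (SE 0.75, 95% interval -0.41 to 3.28) became 0.33 without KO 2. Cyp4a10 was at 8.82 in WT 1 and 16.3 in WT 2, against 6.45 in KO 1 and 29.2 FPKM in KO 2. Its lowest and its highest library were both KO, 4.53 times apart, and the difference of 0.20 (SE 0.64) turned to -0.81 without KO 2 and to -0.21 without WT 1. Vnn1, which encodes the ectoenzyme pantetheinase, was at 5.33 in WT 1 and 3.63 in WT 2, against 4.65 in KO 1 and 9.91 FPKM in KO 2. For this gene WT 2 was the lowest library, and the difference of 0.54 became 0.06 without KO 2.

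Sequence shared with close copies differed among these genes. Cyp4a14 (115486200 to 115496142, minus strand) and Cyp4a10 (115518264 to 115533649, plus strand) are neighbours on chromosome 4, 22121 bases apart. Of the 50-base words of Cyp4a10, 24.5% also occur in Cyp4a32 and 29.8% in any other gene of the table, while Cyp4a14 and Vnn1 shared none. Cyp4a32 itself stood at 2.56 and 4.75 FPKM in WT against 1.77 and 2.63 in KO, with KO 2 within the range of the other libraries.

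Library differences within a genotype were set side by side for all tested members. WT 2 exceeded WT 1 for 15 of 32 members and KO 2 exceeded KO 1 for 23. Neither count was made over all genes or repeated on rescaled values, and the library total of KO 2 was above that of KO 1 (546967 against 498348 FPKM). The sign of the difference was the same in both genotypes for 22 members (68.8%), against 56.0% of all genes tested. In 14 members WT 2 and KO 2 were both the higher library of their genotype, and these included Cyp4a14, Cyp4a10, Fabp1, Slc27a2, Acaa1b, Eci2 and Ppara. Replicate numbers in the labels are not stated to mark a shared animal, day or batch.

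**Figure D4:**
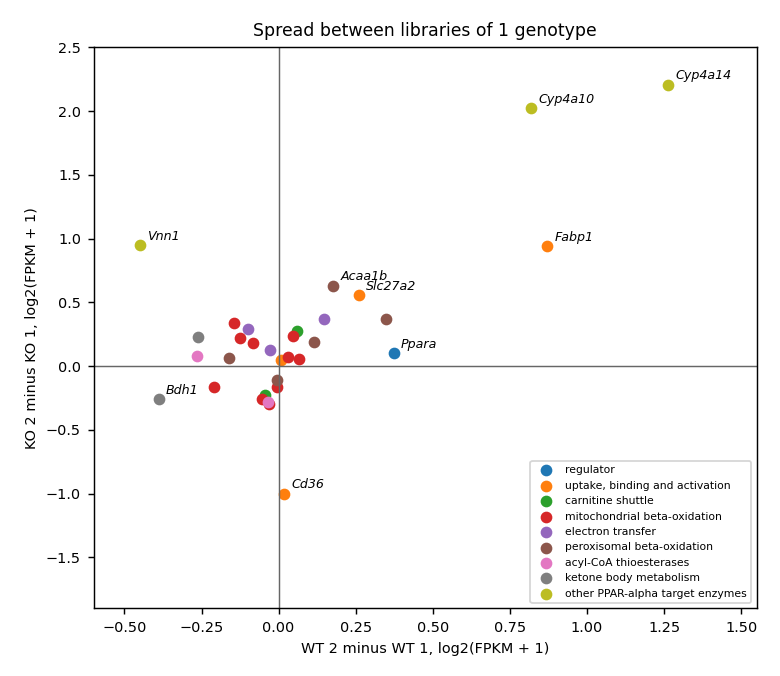
Difference between the libraries of a genotype in log2(FPKM + 1) for the 32 tested members, WT 2 minus WT 1 across and KO 2 minus KO 1 upward, coloured by role. Cyp4a14, Cyp4a10 and Fabp1 lie far out in the upper right, Vnn1 in the upper left and Cd36 at the bottom, while most enzymes of beta-oxidation lie near the centre.

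Other target genes of PPAR-alpha, listed apart from the members, had 29 of 40 tested genes lower and 11 higher in KO; the median log2 difference was -0.14. None passed the limma test over all genes. At an unadjusted limma p under 0.05, 10 were lower and 4 higher. Over all genes, 50.3% had a lower mean in KO, 4.19% were lower at that p and 3.1% higher. Those with the largest separated differences went both ways. The lipid droplet gene Plin4 stood at 6.28 and 6.60 FPKM in WT against 3.41 and 4.05 in KO (-0.66), and Pdk4, a kinase that restrains pyruvate oxidation, differed by -0.79 and by -0.43 without WT 2. The desaturase genes Fads2 (0.996) and Fads1 (0.71) were higher in both KO libraries; they are also targets of SREBP factors.

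Among 29 other mitochondrial oxidation and carnitine genes 19 were lower and 10 higher in KO (median -0.05), and among 35 other peroxisomal genes 26 were lower and 9 higher (median -0.08). No gene of these lists passed the limma test over all genes. At an unadjusted limma p under 0.05, 2 of the mitochondrial genes were lower and 1 higher, and 3 of the peroxisomal genes were lower and 1 higher. Over all genes, 50.3% had a lower mean in KO, 4.19% were lower at that p and 3.1% higher. Mlycd, the malonyl-CoA decarboxylase whose substrate inhibits the carnitine shuttle at Cpt1a, is in both lists. It stood at 21.7 and 23.4 FPKM in WT against 13.3 and 15.6 in KO, a log2 difference of -0.61 (SE 0.12; limma adjusted p = 0.511). Every fit with a library left out kept it between -0.50 and -0.72. Acox2, the branched-chain acyl-CoA oxidase, differed by -0.35 and the peroxisomal reductase Pecr by 0.52, or 0.31 without WT 2. The carnitine carrier Slc25a20, between Cpt1a and Cpt2 in the shuttle, overlapped at 14.8 and 13.5 FPKM in WT against 12.9 and 14.4 in KO (-0.05); it was named after its values were seen. Acad11 (-0.40), Cpt1b (-0.37), Hacl1 (-0.30) and Acsm1 (0.61) were the remaining genes with the largest separated differences. Without WT 2 the value was -0.15 for Cpt1b and 0.35 for Acsm1, and without KO 1 it was -0.19 for Acad11.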

How the data were processed

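The authors deposited 1 value per gene and library, read here as FPKM because the submitters' processing notes name Cufflinks, Cuffdiff 2.2.1, STAR 2.5.0 and mm10 and the values are not whole numbers; the annotation and the strand option of counting are not stated there. Library totals ran from 498348 to 546967 FPKM. Of 22079 identifiers 21984 matched GENCODE M21, which gave symbols, positions and 50-base words of transcripts. Columns were matched to samples by title. Values were transformed as log2(FPKM + 1), which understates changes of low genes, and the 10407 genes that averaged 1 FPKM or more were fitted with limma 3.58.1 in R 4.3.3 (eBayes with intensity trend, genotype only, two-sided, Benjamini-Hochberg, threshold 0.05). The fit was tested on simulated data. No count model was applied. The members and lists were chosen with earlier results of these data known; lists are described by counts and medians. Named beyond the members are up to 4 separated genes per list with the largest differences, Prom1, markers at 0, and a few genes marked as chosen later, with Gm45233 and Cyp4a32 named as close copies; some genes chosen this way are not reported here. Alternatives were pseudocount, filter, scaling, trend, replicate block and each library left out.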

Additional observations from a re-analysis of the deposited data

How the results depend on the processing

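Over 12 alternatives the direction was the same for 25 of the 32 tested members, 19 of them lower in KO, and no member was called in any fit. Pseudocounts of 0.1 and 5, filters of none and of a mean of 5 FPKM, rescaling to a common total or by the median ratio, and eBayes without a trend reversed no member and gave 0 genes called. The 7 members that turned did so only with a library left out. Their ranges over those 4 fits were -0.23 to 0.069 for Hadha, -0.26 to 0.076 for Hadh, -0.29 to 0.34 for Acaa1b, -0.13 to 0.26 for Bdh1, -0.0036 to 0.26 for Acat1, -0.81 to 1.21 for Cyp4a10 and -0.33 to 0.22 for Slc27a2. The median log2 difference of the members ran from -0.22 to -0.093 in these fits, and the number of genes called from 0 to 8, with 8 without WT 1 and 5 without KO 1. Members lower in KO numbered 21 to 24, and members with libraries apart 22 to 30, the latter because fewer libraries have to separate. Members lower at an unadjusted p under 0.05 numbered 8 with all libraries; leaving out WT 1 gave 5, WT 2 gave 3, KO 1 gave 7 and KO 2 gave 11, and eBayes without a trend gave 6. With the replicate block the number of genes called was 0 and of members 0, while genes at an unadjusted p under 0.05 went from 759 to 1054 and members lower at that level from 8 to 12; same-numbered libraries deviated together only weakly across genes (r = 0.151), and the labels do not say that the numbers pair them. With 2 libraries a genotype and unknown depth, precision rests on the spread between libraries.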

Other observations

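Genes that feed fatty acids into oxidation from outside or from stored fat had no common direction. Of 20 tested genes for uptake, binding, activation and lipolysis, members left out, 8 were lower and 12 higher in KO. The median log2 difference was 0.08, and none passed the limma test over all genes. At an unadjusted limma p under 0.05, 1 was lower and 1 higher. Over all genes, 50.3% had a lower mean in KO, 4.19% were lower at that p and 3.1% higher. Pnpla2, the adipose triglyceride lipase that starts the breakdown of stored triglyceride, stood at 55.5 and 69.2 FPKM in WT against 37.2 and 49.1 in KO (-0.53). Without KO 1 this was -0.33. Lipc, the hepatic lipase, differed by -0.35 and by -0.17 without KO 1. The acyl-CoA synthetase genes Acsl5 and Acsl3 were higher in both KO libraries, with Acsl5 at 164 and 148 FPKM in WT against 212 and 179.9 in KO (0.32) and Acsl3 at 10.7 and 7.55 FPKM in WT against 13.6 and 11.2 in KO (0.42). Without WT 2 the value of Acsl3 was 0.20, and without KO 1 that of Acsl5 was 0.20.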
